A study of Mus musculus with 9 samples.

Results

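The cytosolic heat-shock genes were described here in sorted cells of the mouse limb at E12.5. They comprised 10 genes chosen by name, all found in the deposited table of 24102 rows, and all 10 passed the filter on low values (at least 3 of the 6 columns at 1 FPKM or above), as 12314 rows did. FPKM is the number of fragments scaled by transcript length and by library size. The differences between genotypes in each litter were known when they were chosen, so these differences are a description and carry no test. By role, Hspa1a and Hspa1b encode the inducible HSP70 proteins, Hspa8 the constitutive HSP70, Hsp90aa1 and Hsp90ab1 the HSP90 proteins, and Hspb1 a small heat-shock protein. Dnajb1 and Hsph1 encode co-chaperones of HSP70, and Hsf1 encodes the transcription factor that drives the heat-shock response. The name cytosolic does not cover Hspd1, whose product is the mitochondrial chaperonin HSP60.

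Cells were dissociated from embryonic limbs and sorted for green fluorescence. Control cells were Shox2(Cre/+);Rosa(mTmG) and mutant cells Shox2(Cre/-);Rosa(mTmG), so both groups carried Cre at 1 Shox2 allele, with the other allele intact in controls and null in mutants, and the Rosa(mTmG) reporter, whose red membrane protein gives way to a green one once Cre has acted. The labels give 3 control and 4 mutant samples from 3 litters, and the table used here has 1 control and 1 mutant column per litter. Whether the litter 1 mutant column is 1 or both of the 2 samples of that litter could not be read from the header, and the number of embryos in a column is not stated. The green cells are those of the Shox2 lineage, and whole limbs were not analysed here.

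Heat-shock proteins bind unfolded polypeptides and help them fold, or keep them from clumping. In unstressed cells the constitutive members carry this load, while the inducible HSP70 genes are almost silent. When proteins unfold, HSF1 forms trimers, binds heat shock elements in promoters and switches on the inducible genes within minutes. The inducible HSP70 genes are intronless near-copies of each other, lie side by side with Hspa1l on chromosome 17 in mouse, and are also known to respond to tissue dissociation.

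Shox2 itself, whose homeodomain product is needed for the upper limb skeleton, was at 217, 222 and 210 FPKM in the controls of litters 1, 2 and 3 and at 16.7, 18.3 and 96.9 FPKM in the mutants. It was thus at 46.2% of its control in the litter 3 mutant, against 7.68% and 8.25% in litters 1 and 2. The limb mesenchyme factors Prrx1 and Twist1 were at 106 to 246 and 110 to 202 FPKM over the 6 columns. Depth is unknown, because the files used here hold no counts. The file names its normalisation once per litter, so a comparison of levels between litters can carry a difference in scaling. Fewer cells of a type and less RNA per cell cannot be told apart in these bulk samples.

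The promoters of the inducible pair and of Hspb1 are shown because these 3 members differed most between genotypes in litters 1 and 2, and that of Hsph1 because it holds a match but differed little. Each run is the 250 bases before the RefSeq start site on GRCm38.p6 (the most upstream of 2 starts for Hsph1), read along the gene. Capitals mark matches to the 2-unit heat shock element, GAANNTTC or TTCNNGAA, both of which read the same on either strand.
Hspa1a (chr17:34972157-34972406, minus strand): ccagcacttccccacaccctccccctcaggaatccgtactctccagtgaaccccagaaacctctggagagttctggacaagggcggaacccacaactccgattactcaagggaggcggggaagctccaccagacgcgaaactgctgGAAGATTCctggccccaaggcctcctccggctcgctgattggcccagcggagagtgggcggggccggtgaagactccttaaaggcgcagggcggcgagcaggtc
Hspa1b (chr17:34959239-34959488, minus strand): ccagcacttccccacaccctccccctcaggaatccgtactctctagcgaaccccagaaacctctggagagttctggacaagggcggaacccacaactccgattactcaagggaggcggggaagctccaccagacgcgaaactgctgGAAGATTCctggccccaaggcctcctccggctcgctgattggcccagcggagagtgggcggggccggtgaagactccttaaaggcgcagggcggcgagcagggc
Hspb1 (chr5:135887669-135887918, plus strand): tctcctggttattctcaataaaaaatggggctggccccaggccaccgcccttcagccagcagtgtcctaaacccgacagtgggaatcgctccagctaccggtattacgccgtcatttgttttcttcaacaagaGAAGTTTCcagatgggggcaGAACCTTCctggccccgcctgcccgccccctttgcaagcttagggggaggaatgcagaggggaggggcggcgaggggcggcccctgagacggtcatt
Hsph1 (chr5:149636337-149636586, minus strand): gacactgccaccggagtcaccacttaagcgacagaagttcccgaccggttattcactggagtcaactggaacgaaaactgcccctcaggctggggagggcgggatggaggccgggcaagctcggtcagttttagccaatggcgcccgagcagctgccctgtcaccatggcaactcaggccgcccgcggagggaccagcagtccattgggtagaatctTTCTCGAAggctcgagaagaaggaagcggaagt

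The Hspa1a and Hspa1b promoters were equal at 247 of 250 bases, or 98.8%. The differences, from Hspa1a to Hspa1b and counted from 1 at the 5′ end of the run, were C44T, T47C and T249G. Both held 1 match, GAAGATTC, from 104 to 97 bases before the start site, and 1 inverted CCAAT box, ATTGG. Hspb1 held 2 matches, GAAGTTTC and GAACCTTC, and Hsph1 held TTCTCGAA. A 2-unit match of either form stood in 13.0% of 27025 RefSeq promoters of this length, and the 3-unit form (the shorter form with a further unit in alternating sense after the same spacing, on either strand) in 0.403%. Among the 6 members in the promoter table, none held the 3-unit form or TATAAA (either strand), which stood in 13.0% of promoters. Dnajb1 and Hspd1, each read at the most upstream of 2 starts, held none of these heat shock forms, and their other starts were not searched. Hspa8, Hsp90aa1, Hsp90ab1 and Hsf1 were not matched. These matches are letters in a window, not measured binding sites.

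The inducible pair was far higher in the mutants of litters 1 and 2. Hspa1a was at 1.70 FPKM (control) and 29.2 FPKM (mutant) in litter 1, at 3.57 and 50.4 FPKM in litter 2, and at 0.275 and 0.583 FPKM in litter 3. Hspa1b was at 2.39 and 31.0 FPKM in litter 1, at 6.74 and 65.8 FPKM in litter 2, and at 0.493 and 1.09 FPKM in litter 3. The mutant columns of litters 1 and 2 stood above all 4 others for both genes, and both litter 3 columns stood below all others. The genotype groups nevertheless overlapped, since the litter 3 mutant lay under every control of litters 1 and 2.

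As ratios of the deposited values, Hspa1a was 17.2 times its control in litter 1, 14.1 times in litter 2 and 2.12 times in litter 3. For Hspa1b the ratios were 13.0, 9.75 and 2.21. On the log2(FPKM + 1) scale, which shrinks the change of low genes, Hspa1a differed by 3.49, 3.49 and 0.31 and Hspa1b by 3.24, 3.11 and 0.49 in litters 1, 2 and 3. Counted from the highest difference among the 12314 tested rows, Hspa1a ranked 8, 15 and 766 and Hspa1b 9, 18 and 323. Each litter has 1 column per genotype, so the differences between litters have no replicate check. The mean log2 difference over litters was 2.43 ± 1.83 (SD, n = 3) for Hspa1a and 2.28 ± 1.55 (SD, n = 3) for Hspa1b.

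The pair stood close together in every column, with Hspa1b above Hspa1a by 1.06 to 1.89 times. The 2 values are not independent measurements. Of the 50-base stretches of the Hspa1a transcript in GENCODE M21, 58.8% also occur in Hspa1b, 16.2% in the protein-coding gene model Gm20481, and 8.0% each in the neighbour Hspa1l and the antisense gene Gm10501. How the authors assigned reads that match both is not stated in the sources used, so the split between the copies is uncertain and the summed level is the safer measure. The sum was at 4.09, 10.3 and 0.768 FPKM in control and at 60.2, 116 and 1.67 in mutant columns of litters 1, 2 and 3. Hspa1l, a testis-enriched HSP70 in the same cluster, was at 1.61, 3.63 and 1.88 FPKM in control and at 1.54, 2.02 and 1.73 in mutant columns. It did not stand higher in any mutant.

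**Figure D1:**
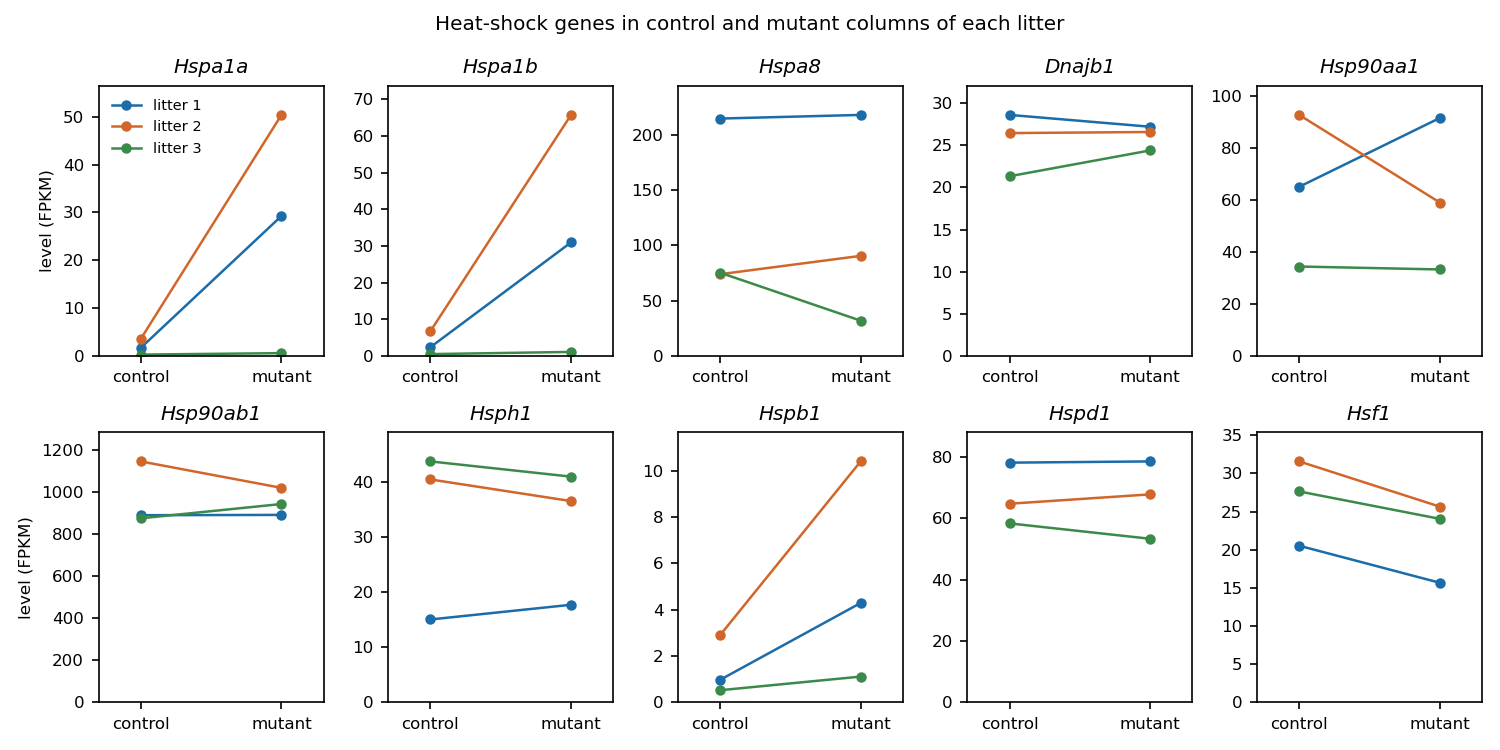
Level of each of the 10 genes in FPKM (y axis, from 0, own scale per panel) in the control and mutant column of each litter, 1 point per column and a line per litter. Hspa1a, Hspa1b and Hspb1 slope upward in all 3 litters, Hspa1a from 3.57 to 50.4 FPKM in litter 2, while Hsf1 slopes downward in all 3.

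Hspb1, which encodes the small heat-shock protein that holds unfolded proteins and binds actin filaments, followed the pair at a lower level. It was at 0.972 FPKM (control) and 4.29 FPKM (mutant) in litter 1, at 2.90 and 10.4 FPKM in litter 2, and at 0.526 and 1.11 FPKM in litter 3. The ratios were 4.41, 3.59 and 2.12. The litter 2 mutant was the highest column and the litter 3 control the lowest, as for the pair. On the log2(FPKM + 1) scale Hspb1 differed by 1.42, 1.55 and 0.47, ranking 26, 86 and 345 among tested rows. Its log2 values correlated with the mean of the pair at Pearson's r = 0.96 over the 6 columns, a description over columns that share litters. About 51.6% of the 50-base stretches of its transcript also occur in the pseudogene Hsp25-ps1 and 43.2% in the protein-coding gene model Gm9817, so its level carries the same kind of uncertainty.

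Another 4 small heat-shock genes were tested. Hspb8, a partner of BAG3, was at 1.66, 1.84 and 2.14 FPKM in control and 2.36, 1.90 and 3.69 in mutant columns. Cryab, the alpha-B crystallin gene, was at 0.291, 2.13 and 1.82 FPKM in control and 0.848, 0.798 and 1.87 in mutant columns. Hspb6 was at 1.59, 5.58 and 4.13 FPKM and at 1.67, 4.06 and 4.02 FPKM. Hspb11, whose product belongs to the intraflagellar transport machinery, stood above these at 13.1 to 26.1 FPKM over the 6 columns.

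Hspa8, the constitutive HSP70 that also uncoats clathrin vesicles, differed more between litters than between genotypes in litters 1 and 2. It was at 215 and 218 FPKM in the control and mutant of litter 1, at 74.0 and 90.6 FPKM in litter 2, and at 75.4 and 31.9 FPKM in litter 3. Both litter 1 columns stood at least 2.37 times above all others, a gap of at least 2 that 0.707% of tested rows showed in that direction for litter 1. In litter 3 the mutant was at 42.4% of its control, a log2 difference of -1.21, which ranked 24 from the lowest among tested rows. Of the 50-base stretches of its transcript, 73.2% also occur in pseudogenes, more than for any other member.

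Set against Hspa8, the inducible pair made up 1.87%, 12.2% and 1.01% of the summed Hspa1a, Hspa1b and Hspa8 FPKM in the controls of litters 1, 2 and 3. In the mutants its share was 21.6%, 56.2% and 4.98%. Every mutant share was above that of its own litter's control. The litter 3 share rests partly on the lower Hspa8 value of that mutant, and the litter 2 control share stood above that of the litter 3 mutant.

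**Figure D2:**
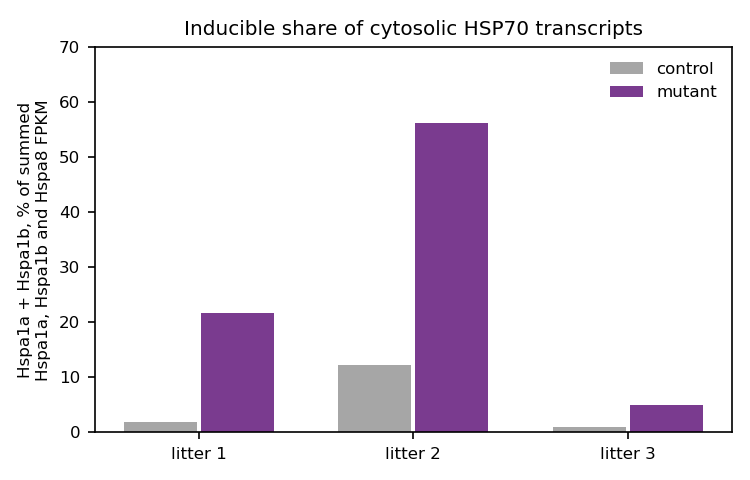
Share of the inducible genes Hspa1a and Hspa1b in the summed FPKM of Hspa1a, Hspa1b and Hspa8 (y axis, percent) in the control (grey) and mutant (purple) column of each litter, 1 bar per column. The mutant bar is the taller of the pair in each litter, at 56.2% in litter 2 and 4.98% in litter 3.

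Neither HSP90 gene followed the pair in both litters 1 and 2. Hsp90ab1, the constitutive HSP90, was the most abundant member in each column, at 889, 1145 and 875 FPKM in control and 891, 1019 and 943 in mutant columns of litters 1, 2 and 3. Its log2 differences were 0.00, -0.17 and 0.11, and the value of litter 2 became 0.04 with quantile normalisation. Hsp90aa1, the stress-responsive HSP90, was at 65.0 and 91.4 FPKM in litter 1, at 92.6 and 58.9 FPKM in litter 2, and at 34.3 and 33.2 FPKM in litter 3. The mutant was thus the higher column in litter 1 and the lower in litter 2, with log2 differences of 0.49 and -0.64, and of -0.05 in litter 3. Pseudogenes share 58.5% of the 50-base stretches of the Hsp90aa1 transcript and 4.5% of those of Hsp90ab1. Hsp90aa1 made up 3.40% to 9.31% of the summed HSP90 FPKM over the columns, lowest in the 2 columns of litter 3.

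The co-chaperones of HSP70 differed little between genotypes. Dnajb1, a J-domain protein that activates HSP70 and is itself a classic target of HSF1, was at 28.6, 26.4 and 21.3 FPKM in control and 27.2, 26.6 and 24.4 in mutant columns. Its differences were -0.07, 0.01 and 0.19, and that of litter 1 turned to 0.00 with either other scaling. Hsph1, the HSP110 that exchanges the nucleotide of HSP70, was at 15.0, 40.4 and 43.7 FPKM in control and 17.7, 36.5 and 40.9 in mutant columns, with differences of 0.22, -0.14 and -0.09. Both litter 1 columns of Hsph1 lay under the others by at least 2.06 times, as 2.68% of tested rows did by 2 or more in litter 1. Neither transcript shares much with another gene, at 0.4% of 50-base stretches for Dnajb1 and 0.0% for Hsph1, so these 2 are the members least open to misassigned reads along with Hsf1 (0.0%).

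Hspd1 and Hsf1 complete the members. Hspd1 was at 78.0, 64.7 and 58.3 FPKM in control and 78.4, 67.7 and 53.3 in mutant columns, with differences of 0.01, 0.07 and -0.13. Its partner Hspe1, the mitochondrial HSP10 that caps it and lies head to head with it in the genome, was at 47.7, 35.7 and 56.1 FPKM in control and 54.8, 47.9 and 66.6 in mutant columns. Hsf1 was at 20.5, 31.6 and 27.6 FPKM in control and 15.7, 25.7 and 24.1 in mutant columns. It was the lower column in the mutant of each litter, by -0.37, -0.29 and -0.19 on the log2 scale, though the groups overlapped. HSF1 is regulated mainly as a protein, so its transcript is no measure of its activity.

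**Figure D3:**
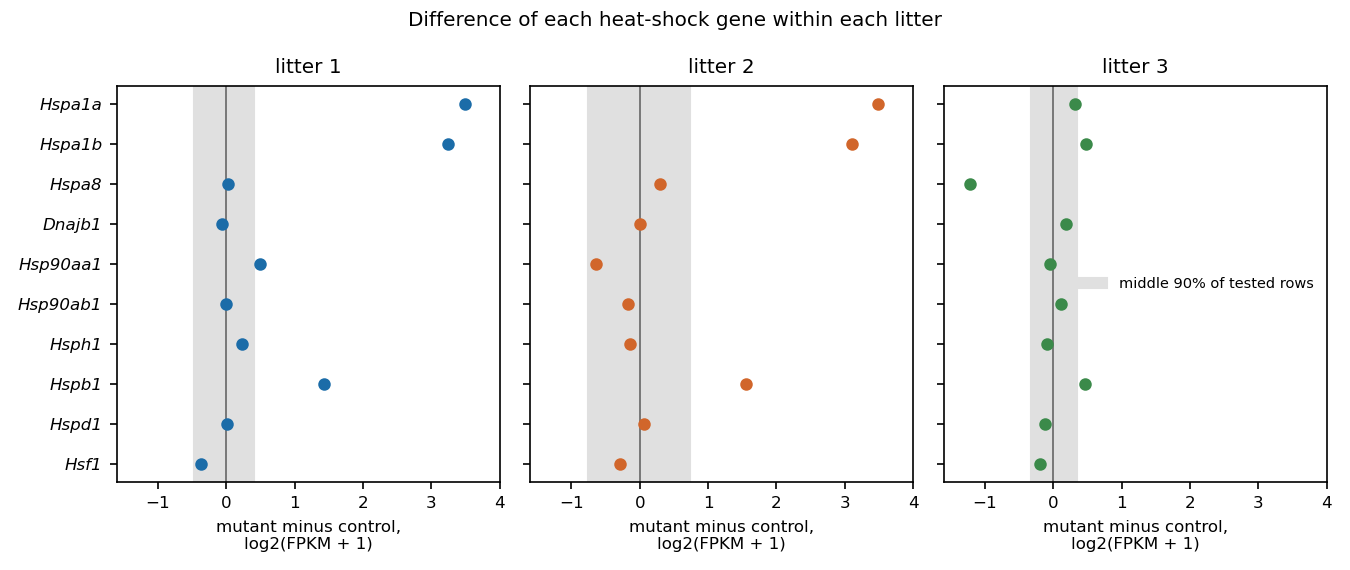
Difference between mutant and control of each gene in log2(FPKM + 1) (x axis), 1 panel per litter, with the grey band holding the middle 90% of 12314 tested rows in that litter. Hspa1a, Hspa1b and Hspb1 lie right of the band in litters 1 and 2, with Hspa1a at 3.49 in both, as do Hsp90aa1 in litter 1 (0.49) and Hspa1b (0.49) and Hspb1 (0.47) in litter 3, while Hspa8 lies left of it in litter 3 at -1.21.

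Ordered by their mean level over the 6 columns, which FPKM allows because it is per length, Hsp90ab1 came first at 960 ± 105 FPKM (SD, n = 6 columns). Hspa8 followed at 117 ± 79.2, Hspd1 at 66.7 ± 10.2, Hsp90aa1 at 62.6 ± 26.1, Hsph1 at 32.4 ± 12.6, Dnajb1 at 25.8 ± 2.56 and Hsf1 at 24.2 ± 5.56 FPKM. Hspa1b, Hspa1a and Hspb1 came last at 17.9 ± 26.1, 14.3 ± 20.9 and 3.36 ± 3.72 FPKM. Hsp90ab1 stood clear of its neighbour, and each other pair of neighbours had overlapping ranges. Dnajb1 and Hsp90ab1 were the steadiest, with the highest column 1.34 and 1.31 times the lowest. For Hspa1a that ratio was 183, for Hspa1b 133 and for Hspb1 19.8.

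A log2 difference of 1 or more, higher in the mutant, was found for 3 of the 10 members in litter 1, where 0.633% of tested rows reached it. It was found for 3 in litter 2, where 2.52% of rows did, and for 0 in litter 3, where 0.406% did. The 3 were Hspa1a, Hspa1b and Hspb1 in both litters, where 0.317% of rows reached it in both. At 2 or more in both litters stood Hspa1a and Hspa1b, as 0.0568% of rows did. Lower by 1 or more was 1 member in litter 3, Hspa8, against 0.3% of rows, and 0 in litters 1 and 2, against 0.252% and 2.26%. Those 3 members were higher in all 3 litters, as 15.7% of tested rows were, and 1 member, Hsf1, was lower in all 3, as 22.3% of rows were. No member separated the groups without overlap, which 9.25% of rows did (4.22% higher and 5.03% lower in the mutants). Because the members were chosen with this contrast known, nothing is read from these counts. The median member difference was 0.12, 0.04 and 0.03 in litters 1, 2 and 3, beside medians of -0.07, -0.03 and 0.00 over all tested rows. The 7 members other than Hspa1a, Hspa1b and Hspb1 had medians of 0.01, -0.14 and -0.09.

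The size of the litter 3 difference depended on the pseudocount, because these genes were low there. Averaged over Hspa1a and Hspa1b, the litter 3 difference was 0.40 with a pseudocount of 1, 0.58 with 0.5, 0.935 with 0.1 and 1.11 as a plain ratio. In litters 1 and 2 it was 3.36 and 3.30 with a pseudocount of 1 and 3.90 and 3.55 as a plain ratio. The plain ratios of Hspa1a, Hspa1b and Hspb1 in litter 3 were close to each other, with log2 values of 1.08, 1.14 and 1.08. Levels of 0.275 to 1.11 FPKM may rest on few reads, and without counts no interval can be given.

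**Figure D4:**
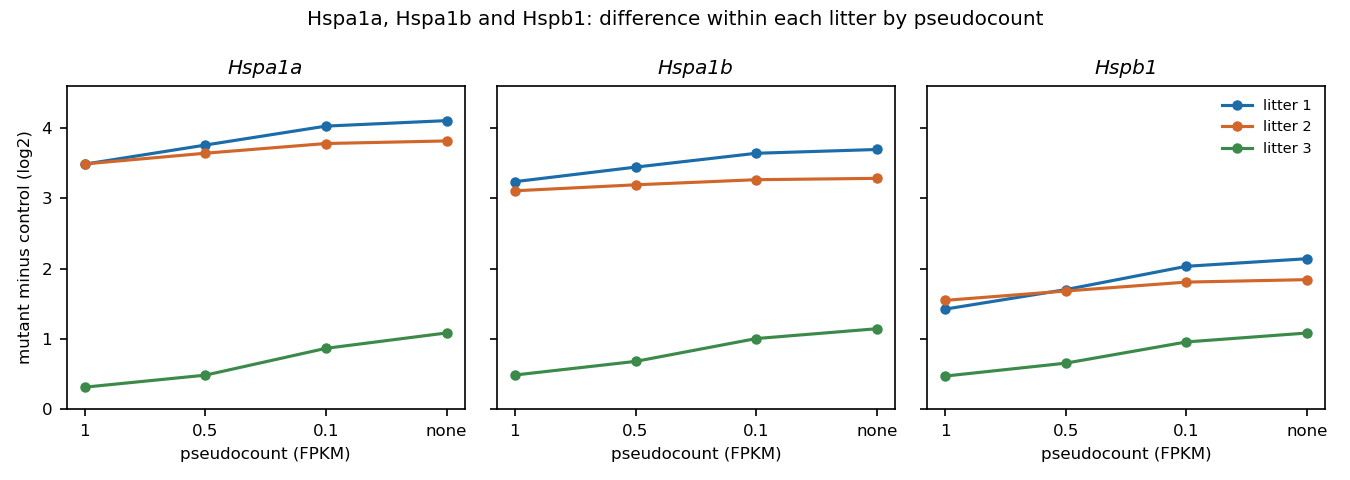
Difference between mutant and control (y axis, log2) of Hspa1a, Hspa1b and Hspb1 with a pseudocount of 1, 0.5, 0.1 or none added to FPKM (x axis), 1 line per litter. The litter 3 line of Hspa1a climbs from 0.31 to 1.08, while litters 1 and 2 stay above it at each setting.

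The rest of the chaperone network was examined with a list of 77 genes, of which 74 were found by name and 68 passed the filter. In limma over all 12314 rows, 0 of the 68 passed an adjusted p of 0.05, as did 0 rows in all (0.0%), and 0 of the 68 were under an unadjusted p of 0.05, against 272 higher rows (2.21%) and 167 lower ones (1.36%). A litter block in limma also gave 0 calls among the 68, and an unadjusted p under 0.05 was reached by 1 that was higher and 5 that were lower, as by 5.34% and 6.29% of all rows. The 1 was Hspe1, with a log2 difference of 0.29 (SE 0.11, limma adjusted p = 0.399, both with the block). The 5 were Dnajb5, Unc45a, Hspbp1, Dnajb11 and Hspa12b, with limma adjusted p from 0.339 to 0.411. Shox2 itself did not pass, with a difference of -2.75 (SE 0.64, limma adjusted p = 0.803, or 0.0998 with the block). A count of 0 calls is therefore no sign that genes stayed level. Higher in all 3 litters were 9 of the 68, or 13.2%, and lower in all 3 were 21, or 30.9%, beside 15.7% and 22.3% of all rows. A log2 difference of 1 or more in both litters 1 and 2 was seen in 0 of the 68, beside 0.317% of all rows.

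Dnajb5, a J-domain co-chaperone, was at 7.76, 14.5 and 9.11 FPKM in control and 5.10, 7.17 and 8.32 in mutant columns, which differ by -0.52 (SE 0.27, limma adjusted p = 1.00). Unc45a, a chaperone of myosin, was at 18.9, 27.5 and 24.3 FPKM and at 15.3, 19.1 and 20.0 FPKM, a difference of -0.35 (SE 0.19). Both were lower in 3 of 3 litters and did not pass the test. Bag3, a nucleotide exchange factor of HSP70 that HSF1 induces along with Hspa1a, was at 6.95, 11.9 and 12.0 FPKM in control and 5.47, 10.8 and 11.4 in mutant columns, with no mutant above its control. Hspa2, an HSP70 of the male germ line, was at 2.01, 1.58 and 1.77 FPKM and at 2.22, 2.08 and 2.97 FPKM. Its groups did not overlap, as for 9.25% of tested rows, and the difference of 0.29 (SE 0.17) did not pass limma (adjusted p = 1.00).

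By list, 0 genes passed limma in any group. Of the other heat-shock factors and their partners, 2 genes were tested. Hsf2 was at 26.0 ± 3.49 and 25.1 ± 2.69 FPKM (controls, then mutants, SD, n = 3). Hsbp1, whose product binds HSF1 trimers, was at 112 ± 12.3 and 103 ± 15.4 FPKM (SD, n = 3). The other HSP70 genes (7 tested, Hspa4 among them at 91.4 ± 2.89 and 81.9 ± 11.3 FPKM) had medians of 0.06, -0.21 and -0.07, and the other small heat-shock genes (4 tested) of 0.20, -0.18 and 0.07. The co-chaperone list (16 tested) had medians of -0.12, -0.28 and -0.03 in litters 1, 2 and 3, with Ppid, a cyclophilin of the HSP90 complex, at 77.1 FPKM (control) and 30.5 FPKM (mutant) in litter 2. The J-domain list (10 tested) had medians of 0.05, -0.52 and -0.04, with Dnajc8, a J-domain protein of splicing, at 93.4 and 45.2 FPKM in litter 2. The TRiC chaperonin, the ring that folds actin and tubulin, had medians of 0.09, -0.06 and 0.04 over its 8 genes. Cct4 was at 160 ± 14.6 FPKM in control and 177 ± 6.13 in mutant columns (SD, n = 3), and Cct3 at 202 ± 27.5 and 178 ± 16.9 FPKM. Chaperones of the endoplasmic reticulum (13 tested) had medians of -0.04, -0.15 and -0.08. Among them Hspa5, the luminal HSP70 called BiP, was at 544, 533 and 509 FPKM in control and 528, 455 and 446 in mutant columns. Dnajb11 was at 58.3 ± 3.88 and 47.5 ± 2.73 FPKM and Hyou1 at 64.4 ± 6.29 and 54.5 ± 2.24 FPKM (SD, n = 3), without overlap between groups, and neither passed limma (adjusted p = 1.00 for both). The mitochondrial list (8 tested, with Clpp at 37.5 ± 8.40 and 31.2 ± 4.54 FPKM) had medians of -0.02, -0.20 and 0.04. Lower in all 3 litters, as 22.3% of all rows were, stood 7 of 16 co-chaperone, 6 of 13 endoplasmic reticulum, 3 of 10 J-domain, 3 of 7 HSP70, 1 of 8 TRiC, 1 of 8 mitochondrial and 0 of 4 small heat-shock genes. Higher in all 3, as 15.7% of rows were, stood 1, 0, 1, 2, 2, 1 and 2 genes of these lists in the same order. Neither Hsf2 nor Hsbp1 was in either count.

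**Figure D5:**
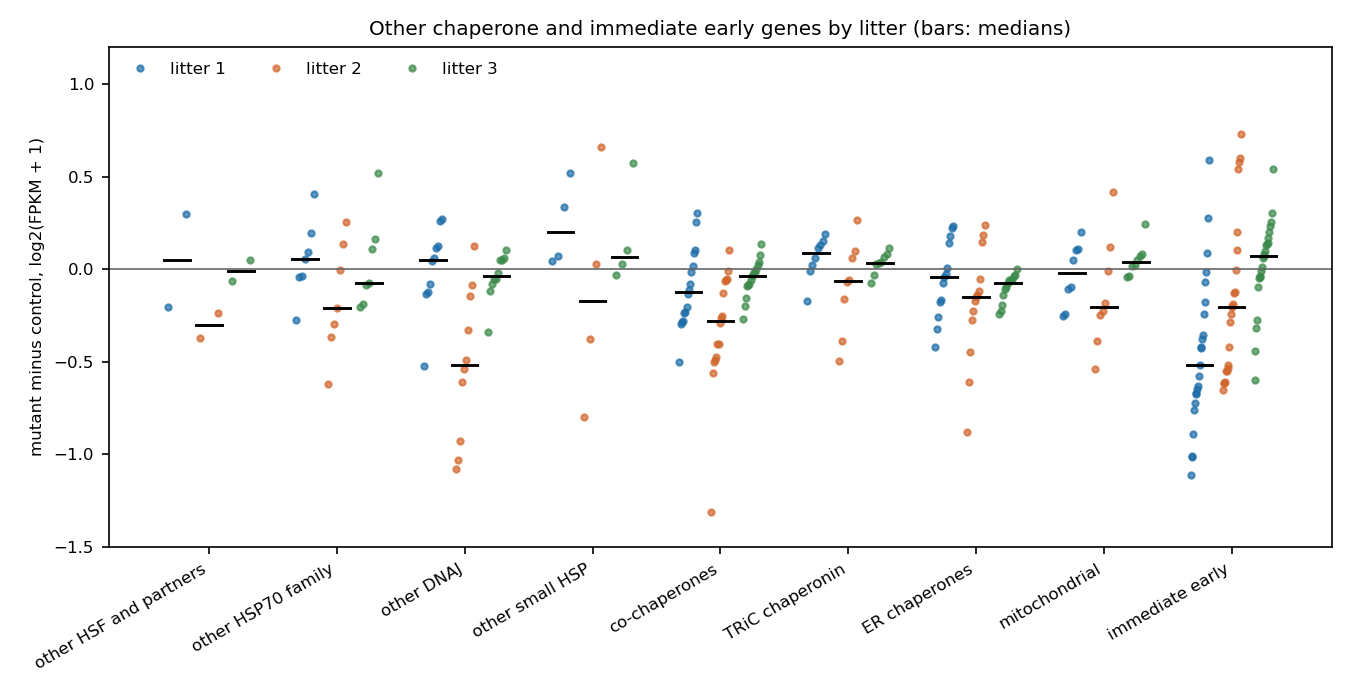
Difference between mutant and control in log2(FPKM + 1) (y axis) of each tested gene of the other chaperone lists and of the immediate early list (x axis), 1 point per gene, coloured by litter, with black bars at medians. No chaperone gene reaches 1 in both litters 1 and 2, and the immediate early genes lie lowest in litter 1, with a median of -0.52.

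Immediate early genes, which like the inducible pair are known to respond to cell handling, had medians below 0 in litters 1 and 2. Over 23 tested genes the median difference was -0.52, -0.20 and 0.07 in litters 1, 2 and 3. Fos was at 166 and 104 FPKM in the control and mutant of litter 1, at 139 and 138 FPKM in litter 2, and at 121 and 137 FPKM in litter 3. Egr1 was at 79.0 and 42.1, at 188 and 128, and at 143 and 142 FPKM. These were lower in the mutant of litter 1, and Fos was level in litter 2. Jun was at 125 and 97.8, at 177 and 154, and at 112 and 132 FPKM. Atf3, also a stress-induced factor, was at 4.17 and 3.38, at 3.39 and 5.57, and at 1.71 and 1.73 FPKM. Of this list, limma called 0 genes with or without the litter block. At an unadjusted p under 0.05 it had Ier3 higher (0.56, SE 0.17) and Junb lower (-0.57, SE 0.23), both with a limma adjusted p of 1.00, so 1 of 23 in each direction, where 2.21% of all rows were higher and 1.36% lower. With the litter block the same threshold was met by 1 higher gene, Ier3, and 5 lower ones, Nr4a1, Zfp36, Junb, Egr1 and Myc, beside 5.34% and 6.29% of all rows. Their limma adjusted p with the block ran from 0.105 (Nr4a1) to 0.388 (Myc). The part of cell handling in the values of the pair was not tested.

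Markers of other cell types were summed per column. Nerve and glia genes (10 found) summed to 39.3, 63.1 and 21.8 FPKM in control and 81.2, 41.7 and 31.2 in mutant columns, higher in the mutant of litters 1 and 3 and lower in that of litter 2. Red cell genes (5 found of 9) summed to 489, 591 and 327 FPKM and to 712, 382 and 229 FPKM. Muscle genes (10 found) summed to 20.6, 61.5 and 24.6 FPKM in control and 40.4, 37.4 and 36.2 in mutant columns. That sum was higher in the mutant of litters 1 and 3 and lower in that of litter 2. Surface ectoderm (8) summed to 15.0, 36.6 and 19.4 FPKM and to 12.6, 19.8 and 15.2 FPKM. Endothelium (8) summed to 16.6, 20.7 and 16.2 FPKM and to 11.8, 13.6 and 14.7 FPKM. Both sums were lower in the mutant of each litter, though some genes of both lists went the other way. Leukocyte genes (8) summed to 12.8, 12.6 and 16.1 FPKM in control and 10.9, 22.1 and 11.7 in mutant columns. That sum was higher in the mutant of litter 2 alone. Ptprc, which defines leukocytes, was at 0.337 FPKM or less and listed at 0 in the litter 2 control. Fcer1g, Tyrobp and Aif1 were also listed at 0 there, and at 2.21, 2.59 and 0.561 FPKM in the litter 2 mutant. Of this list only Laptm5 was lower in that mutant, at 3.83 FPKM (control) and 3.64 FPKM (mutant). The red cell sum was mostly Hbb-y, an embryonic globin gene, at 182 to 567 FPKM. The part of other cell types in the values of the pair was not tested. In the litter 2 control Eif2s3y and Kdm5d, both Y-linked, were at 23.9 and 4.78 FPKM, and both were listed at 0 in the litter 2 mutant, so sex and genotype cannot be told apart in litter 2. In litter 1 Eif2s3y was at 21.6 FPKM (control) and 22.4 FPKM (mutant), while 8.86 and 6.55 FPKM were listed for Kdm5d. Xist, the X inactivation transcript, was at 12.1 and 36.8 FPKM in litter 1, at 34.6 and 178 FPKM in litter 2 and at 73.0 and 68.4 FPKM in litter 3. It stood beside Eif2s3y in every column but the litter 2 mutant, as where cells of both sexes are mixed. In the litter 1 mutant Xist was 3.03 times its control, so the mix of sexes may differ between genotypes there too. The part of sex in the values of the pair was not tested. Shox2 was lowest in the same 2 columns in which the pair was highest, and the part of its residual level in the pair's values was not tested.

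Outside the members, the rows most like the pair over the 6 columns, by Pearson's r with the mean log2(FPKM + 1) of Hspa1a and Hspa1b, were Stxbp5 (0.985), Zfp146 (0.97), Myo6 (0.96), Spock2 (0.96) and Kif1a (0.96), out of 11005 candidates whose mean was at least 2 FPKM. Their changes were small beside that of the pair. Stxbp5, which encodes the syntaxin-binding protein tomosyn, was at 5.78, 6.86 and 5.45 FPKM in control and 8.19, 9.28 and 5.97 in mutant columns. Zfp146, a zinc-finger gene, ranged from 66.9 to 73.8 FPKM. Among members Hspb1 came next to the pair at 0.96, and the others ran from -0.34 for Hsf1 to 0.61 for Hsp90aa1. These values describe 6 columns that share litters. The 5 rows are the highest of 11005, and so few columns can give a high r to unrelated rows. Shared regulation was not tested.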

How the data were processed

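RNA of green-sorted limb cells was sequenced, and 3 control and 3 mutant columns were used. Per the submitters' processing notes, TopHat and Cuffdiff were used on mm9; no source used here gives versions, annotation, strand use or filters. The header names Cuffdiff and geometric normalisation above every litter. The deposited values were taken as FPKM, Cuffdiff's usual unit, a word the header lacks. The sum per column, 347708 to 439109 FPKM, is no measure of depth.

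Here limma 3.58.1 (R 4.3.3) with an intensity trend was fitted on log2(FPKM + 1) over 12314 rows and adjusted by the Benjamini-Hochberg method. The fit was run on simulated data to check the size of its estimates, which is no measure of what it misses in these columns. It has 3 columns per group, since the table gives 3 mutant columns for the 4 mutant samples of the labels. Whether columns are separate animals is not stated, so p-values measure the spread between columns. A column may pool embryos, since Xist stood beside the Y-linked Eif2s3y in every column but the litter 2 mutant. Members and lists were chosen with earlier results of these data known. Named genes were all members, Shox2, up to 2 genes per pathway list by limma p, 5 rows most like the pair, and Hspa5, Hspe1, Bag3, Fos, Jun, Egr1, Atf3 and sex-linked genes. Hspa1l, Cryab, Hspb6, Hspbp1, Hspa12b, Nr4a1, Zfp36, Myc, Hbb-y, Prrx1 and Twist1 were named after their values were seen. So were the nerve, glia and leukocyte genes named singly. The litter number pairs the columns, as the descriptions name litters. Deviations from group means correlated at 0.87, 0.57 and 0.77 within litters 1, 2 and 3 and at 0.17 or less across them. Deviations from a mean of 3 columns cancel out, which by itself lowers the values across litters. Scaling by litter may raise those within, so the pairing rests on the labels. Alternatives were the litter block, filters, pseudocounts, scalings, left-out columns and, chosen after seeing the data, column weights and no pseudocount. Promoters came from RefSeq on GRCm38.p6 (6 of 10 members matched) and 50-base stretches from GENCODE M21 transcripts, a build other than mm9.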

Additional observations from a re-analysis of the deposited data

Results flagged for a closer look

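In 2 members the litters pointed in opposite directions by 0.25 or more each on the log2(FPKM + 1) scale. Hspa8 differed by 0.29 in litter 2 and by -1.21 in litter 3. Hsp90aa1 differed by 0.49 in litter 1 and by -0.64 in litter 2. With 1 column per genotype in a litter, these differences between litters were not tested.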

How the results depend on the processing

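The counts of limma calls over all rows stayed at 0 with a replicate block by litter (0 calls), with other filters, pseudocounts of 0.1 and 0.5 and other scalings, and without any single litter pair in the fit with no block. They were 15 with column weights, chosen after seeing the data, 534 with the replicate block without the litter 2 pair, 36 with it without the litter 3 pair, and 0 to 1 without single columns, where the 1 arose without control replicate 3 and again without mutant replicate 3. The replicate block without a litter pair leaves very few columns to estimate the spread, so its counts are uncertain. The cause of the changed counts was not tested. The 68 other chaperone genes had 0 calls in each of these settings. The median difference of the members was -0.01, and 0.063 with quantile normalisation and 0.061 without the litter 2 pair (0.061 also with the replicate block). Without single columns it ran from -0.082 (control replicate 3) to 0.218 (mutant replicate 3). The mean difference of Hspa1a and Hspa1b kept its sign in each litter. In litter 1 it moved from 3.36 to 3.60 with a pseudocount of 0.5, 3.84 with 0.1 and 3.90 without one, and in litter 3 from 0.40 to 0.58, 0.935 and 1.11, the last in each case chosen after seeing the data. In litter 2 it stayed at 3.30 to 3.55. Filters do not touch the members' own values, since all 10 were used. Without counts, depth limits the low values of litter 3 to an unknown degree.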

Other observations

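In both litters 1 and 2, 39 of the 12314 tested rows were higher in the mutant by 1 or more on the log2(FPKM + 1) scale (0.317%), and 32 of them were protein-coding by the RefSeq entry of their symbol. Ordered by the smaller of the 2 differences, Hspa1a (3.49) and Hspa1b (3.11) led these 32, ahead of Glra2, a glycine receptor subunit (1.84), Bhlhe40, a repressor of the clock (1.79), and Ndst4, an enzyme of heparan sulfate synthesis (1.55). Hspb1 came 8th at 1.42. At a log2 difference of 2 or more in both litters there were 7 rows (0.0568%), namely Hspa1a, Hspa1b and 5 short RNA genes, Snora16a, Snora65, Snora70, Mir703 and Gm24148. Those 5 were listed at 0 in the controls of litters 1 and 2, and at 13.3 to 3198 FPKM in the control of litter 3. Hspa1a and Hspa1b were listed above 0 in all 6 columns.

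Ubb, a polyubiquitin gene that heat shock also induces, differed by litter more than by genotype. It was at 222, 612 and 77.1 FPKM in control and 171, 401 and 81.5 in mutant columns of litters 1, 2 and 3. The order of the litters was that of the pair in both genotypes, but within litters 1 and 2 the mutant was the lower column. These genes were chosen after their values were seen.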
